A study of Mus musculus with 18 samples.

Results

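The genes described here are named for proteins of the cytosolic ribosome. They were chosen by name, as every gene called Rpl or Rps with a number, with an optional letter, together with Rplp0, Rplp1, Rplp2 and Rpsa, leaving out processed copies marked -ps and the kinases of Rps6. The rule found 83 genes of 35560 joined between 2 deposited count tables, of which 48 belong to the large subunit, 32 to the small subunit and 3 to the P stalk, the flexible arm of the large subunit. Of these, 80 passed the filter on low counts, among 14623 genes tested in all. Rpl10l had 0 counts in all 18 libraries, and Rpl32l and Rpl39l had at most 2 and 10 counts in any library, so these 3 genes were not tested. Rpl6l and Rps4l, which were tested, are annotated by RefSeq as a pseudogene and a transcribed pseudogene, with no coding length.

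Bulk RNA-seq of heart tissue from wild-type male C57BL/6 mice compared 3 groups of 6 libraries, and the labels give no age for the mice. One group received isoproterenol (ISO) with 100 nm polystyrene particles (PS), another ISO with 1 µm PS, and the last ISO with water by gavage. Isoproterenol, a beta-adrenergic agonist used to injure the heart, was injected under the skin at 2.5 mg/kg/day for 21 days in all 3 groups, so every library came from a heart exposed to ISO. PS was given by oral gavage at 50 mg/kg/day for 21 days. Libraries were made by 2 sequencing providers, called batch 1 (5 of 100 nm PS, 4 of 1 µm PS and 3 of ISO) and batch 2 (1 of 100 nm PS, 2 of 1 µm PS and 3 of ISO). The labels do not say whether a library is 1 heart, so p-values measure the spread between libraries.

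The ribosome joins amino acids into protein. Its small subunit reads the mRNA and its large subunit forms the peptide bond, and each subunit is an RNA core covered by many small basic proteins, most of them present once per ribosome. In mammals the genes for these proteins are expressed at high levels in all cells and tend to vary together, and their mRNAs start with a C followed by a run of pyrimidines, the 5′ terminal oligopyrimidine (TOP) tract, through which the mTORC1 pathway and the RNA-binding protein Larp1 control their translation. Heart muscle has a ribosomal protein of its own, Rpl3l, which replaces Rpl3 in part of the ribosomes of striated muscle.

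Promoter sequences are shown because the TOP tract and the region before it are the regulatory feature that these genes share and the choice by name did not use. RefSeq windows (GRCm38.p6, the build of that table and not of the count tables) were searched for 61 of the 83 genes. These were 73 windows of 100 bases, from 70 bases before to 30 bases after the annotated start of transcription. Not every chromosome was searched, for these genes or for the others, so a gene outside the 61 may still have a window. The motif CTTTC, a simple form of a TOP tract, stood on the transcript strand in 39.7% of these windows (29 of 73), against 12.6% of 32778 windows of other genes. On the opposite strand it was found in 10.96% of the windows of ribosomal protein genes and 11.8% of the others. Within 10 bases before to 15 bases after the start, 20.5% of the windows of ribosomal protein genes held it, against 3.07% of the others. The windows below run 5′ to 3′, with CTTTC in capitals. The first 4 are from genes that hold the motif near the start, although in Rps15a it begins just outside the narrower range above. The last 3 are from genes without it, among them the cardiac paralogue Rpl3l.

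Rps15a (chr7:118116118-118116217, minus strand): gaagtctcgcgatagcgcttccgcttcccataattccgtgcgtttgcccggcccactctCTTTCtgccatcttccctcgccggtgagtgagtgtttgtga

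Rps27 (chr3:90213619-90213718, minus strand): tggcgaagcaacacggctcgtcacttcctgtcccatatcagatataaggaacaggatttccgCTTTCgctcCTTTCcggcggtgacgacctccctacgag

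Rpl38 (chr11:114668510-114668609, plus strand): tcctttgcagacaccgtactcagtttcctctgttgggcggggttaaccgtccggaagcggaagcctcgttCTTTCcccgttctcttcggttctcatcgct

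Rplp2 (chr7:141447581-141447680, plus strand): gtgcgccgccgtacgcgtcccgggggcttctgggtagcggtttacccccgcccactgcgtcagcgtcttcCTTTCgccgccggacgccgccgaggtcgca

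Rplp0 (chr5:115559397-115559496, plus strand): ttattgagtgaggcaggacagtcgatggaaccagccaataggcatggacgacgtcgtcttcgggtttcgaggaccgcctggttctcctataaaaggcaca

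Rpl10 (chrX:74270746-74270845, plus strand): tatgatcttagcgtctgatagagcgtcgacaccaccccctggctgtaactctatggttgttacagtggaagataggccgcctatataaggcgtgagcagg

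Rpl3l (chr17:24727756-24727855, plus strand): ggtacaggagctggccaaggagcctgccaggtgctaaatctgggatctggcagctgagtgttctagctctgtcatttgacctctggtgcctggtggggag

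The motif did not divide the genes by their change. The median log2 fold change of both PS groups against ISO was -1.15 for the 26 tested genes with CTTTC in a window and -1.199 for the 32 tested genes with windows that lacked it.

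Library totals ranged from 14032257 to 22600570 counts. Of all libraries ISO replicate 2 detected the fewest genes, 13152, against 16562 to 18755 in the other 17. All 12 cardiomyocyte markers were detected in every group. The summed level of these markers was 44625 to 95728 CPM (a count scaled to the library's total) with 100 nm PS, 52176 to 129701 CPM with 1 µm PS and 41815 to 105287 CPM in ISO.

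Levels of the ribosomal protein genes were first compared between libraries as their mean log2 CPM over the 80 tested genes, after scaling by trimmed mean of M-values (TMM). This mean ran from 7.08 over a median of 7.36 to 7.65 with 100 nm PS, from 6.83 over 7.39 to 7.50 with 1 µm PS, and from 6.56 over 7.91 to 9.89 in ISO. The PS libraries lay close together, while the ISO libraries held both the highest level, in replicate 2, and the lowest, in replicate 1. As a share of all counts, the 83 genes took 1.49 to 2.31% with 100 nm PS, 1.16 to 2.08% with 1 µm PS and 0.967 to 8.26% in ISO. ISO replicate 2 held the highest CPM of 75 of the 80 tested genes and ISO replicate 1 the lowest CPM of 40. In bulk tissue, fewer cells of a type and less RNA per cell cannot be told apart.

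The 2 batches gave different pictures. In batch 2 every PS library was below every ISO library, at 7.08 with 100 nm PS and 6.83 and 7.33 with 1 µm PS, against 7.73, 8.08 and 8.56 in ISO. In batch 1 the PS libraries had means of 7.22 to 7.65 with 100 nm PS and 7.37 to 7.50 with 1 µm PS, against 6.56, 7.19 and 9.89 in ISO. There, 2 of the 3 ISO libraries lay below every PS library and the remaining one lay far above them all.

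**Figure D1:**
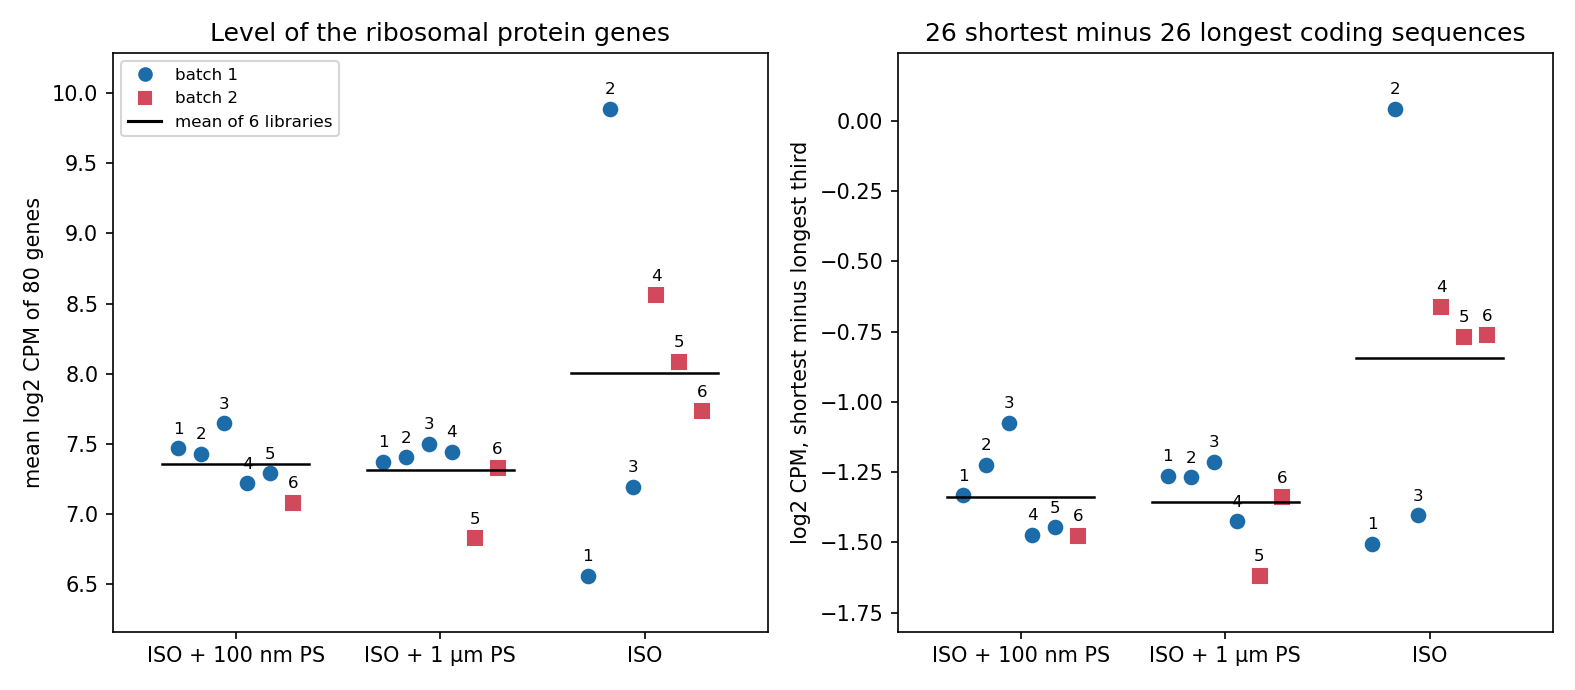
Left, mean log2 CPM of the 80 tested ribosomal protein genes in each of the 18 libraries; right, mean log2 CPM of the 26 genes with the shortest coding sequences minus that of the 26 with the longest. Points are libraries with their replicate number, circles are batch 1 and squares batch 2, and bars are group means. On the left, ISO replicate 2 stands at 9.89 and all PS libraries between 6.83 and 7.65; on the right, ISO replicate 2 stands at 0.04 and the PS libraries between -1.62 and -1.08.

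With 100 nm PS, 27 of the 80 tested ribosomal protein genes were lower than in ISO and none was higher, in a fit over all 18 libraries with group and batch as terms (edgeR quasi-likelihood test, Benjamini-Hochberg adjusted p under 0.05 over all genes tested). Over all genes 5.69% were called lower and 3.88% higher (9.57% in either direction). The log2 fold change was below 0 for 80 of 80 genes, with a median of -1.25, against -0.02 over all genes tested. By subunit, 14 of 45 genes of the large subunit fell, 13 of 32 of the small subunit and 0 of 3 of the stalk. The ranges of CPM overlapped between the 2 groups for all 80 genes, while 0.745% of all genes had every 100 nm PS library below every ISO library and 1.63% had every one above.

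With 1 µm PS the count was again 27 lower and none higher, with a median log2 fold change of -1.22 (0.00 over all genes) and all 80 below 0. Over all genes 4.5% were called lower and 2.89% higher, or 7.39% in all. The subunits stood at 14 of 45, 13 of 32 and 0 of 3 once more. When the PS groups were averaged and set against ISO, 56 of 80 genes were lower and none higher (10.9% lower and 6.8% higher over all genes), with a median of -1.22. With 1 µm PS and with both groups together the ranges of CPM again overlapped for all 80 genes, against 0.424% and 0.239% of all genes that lay lower and 1.12% and 0.574% that lay higher without overlap. These comparisons share the same 6 ISO libraries and are therefore not independent of each other.

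These counts depended on single libraries. Without ISO replicate 2, the library with the highest level, 2 genes fell with 100 nm PS, 3 with 1 µm PS and 5 with both PS groups together, and none rose, while 9.04%, 8.56% and 12.5% of all genes were called lower and 5.01%, 4.83% and 7.61% higher in those fits (14.1%, 13.4% and 20.1% in either direction). The median log2 fold changes without it were -0.32, -0.39 and -0.36 in the same order of comparisons, and 70, 73 and 72 of 80 genes had a value below 0. Leaving out ISO replicate 1 or 3, the ISO libraries with the lowest levels, gave 69 and 57 genes lower with 100 nm PS (12.7% and 15.4% of all genes called in either direction) and 71 and 59 with 1 µm PS (11.4% and 15.7%). Leaving out ISO replicate 4 gave 12 and 2 genes, with 5.79% and 2.78% of all genes called, and leaving out ISO replicate 6 gave 16 genes with 1 µm PS, with 3.95%. The count for 100 nm PS was 5, 5, 11, 9, 8 and 1 without replicates 1 to 6 of that group in turn, where 3.34%, 3.46%, 4.1%, 5.91%, 5.96% and 1.15% of all genes were called. It was 17 without 1 µm PS replicate 2, with 6.16% of all genes. The count for 1 µm PS was 1, 3, 1, 3, 4 and 8 without replicates 1 to 6 of its own group, where 1.79%, 3.45%, 1.96%, 2.69%, 5.6% and 3.97% of all genes were called. Without those of 100 nm PS it was 13, 12, 12, 14, 14 and 12, with 4.67% to 5.46% of all genes. The number called thus moved over all genes too, and the medians of the ribosomal protein genes stayed between -1.28 and -1.18 in these fits without 1 PS library. With both groups together, ISO replicate 2 was the single library that moved the count of 56 by more than 1.5 times. Either a fit with no batch term or a correction for GC content left 0 ribosomal protein genes called for each particle size (edgeR), and few of any kind. Without the batch term 0 of 14623 genes were called for each size, and with the GC correction 2 of 14593 with 100 nm PS and 0 with 1 µm PS. The medians of the ribosomal protein genes were -1.08 and -1.16 without the batch term and -1.58 and -1.51 with the GC correction. An unadjusted p under 0.05 was found for 51 and 60 of them, and for 76 and 76.

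In batch 1 alone 3 of 79 genes were lower with 100 nm PS, 0 with 1 µm PS and 18 with both groups together, and none was higher; 46, 38 and 55 had an unadjusted p under 0.05 (edgeR). Over all genes 4.51%, 2.27% and 8.12% were called lower there and 3.01%, 1.7% and 4.74% higher (7.52%, 3.96% and 12.9% in all). No ribosomal protein gene had all PS libraries of batch 1 on one side of all 3 ISO libraries, against 5.69% of all genes lower and 7.74% higher. The direction turned round once ISO replicate 2 was left out. The median log2 fold change was then 0.50 with 100 nm PS and 0.51 with 1 µm PS, against -1.30 and -1.26 with that library. In that fit 26 of 79 genes were higher and 1 lower with 100 nm PS, 25 were higher and 0 lower with 1 µm PS, and 35 were higher and 1 lower with both PS groups together. Over all genes, 11.2%, 9.97% and 13% were called higher there and 14.5%, 12.8% and 16.4% lower. The gene called lower was Rps15a. For 34 of the 80 genes every PS library of batch 1 was above ISO replicates 1 and 3, a pattern held by 14.3% of all genes tested.

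Batch 2 alone, with 3 PS and 3 ISO libraries, gave medians of -1.12 with 100 nm PS, -1.18 with 1 µm PS and -1.14 with both. None of 79 genes was called for either particle size (edgeR), where 0.0139% and 0.0348% of all genes were called lower, and 53 and 65 genes had an unadjusted p under 0.05. With both sizes together 26 of 79 were lower and none higher, against 1.59% of all genes lower. In this batch 66 of the 80 genes had every PS library below every ISO library, and 16.7% of all genes did. The 100 nm group has 1 library in this batch, so its spread is assumed to be that of the other groups.

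**Figure D2:**
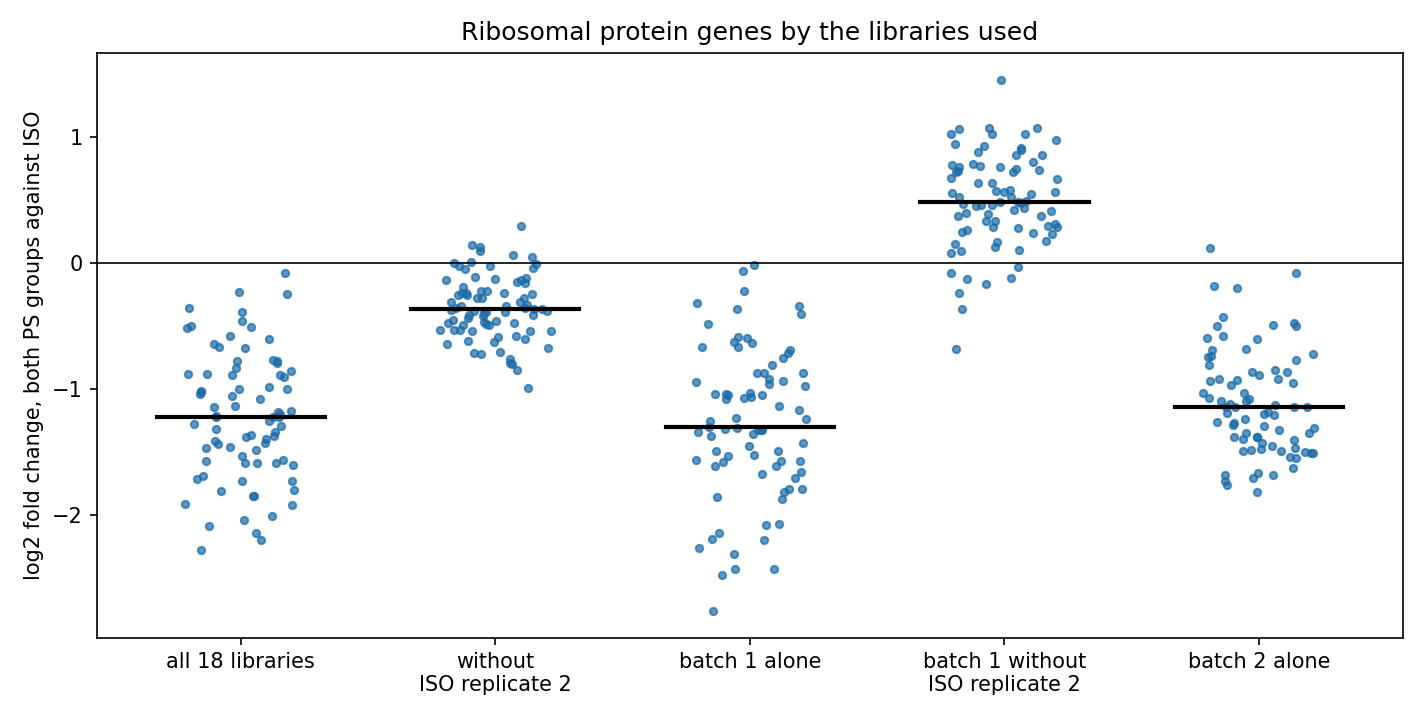
Log2 fold change of each tested ribosomal protein gene (points) for the averaged PS groups over ISO, fitted with all 18 libraries or with the subsets named on the x axis; bars are medians. The medians are -1.22 with all libraries, -0.36 without ISO replicate 2, -1.30 in batch 1, 0.49 in batch 1 without ISO replicate 2, and -1.14 in batch 2.

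The gene with the smallest p in all comparisons with ISO was Rps15a, which encodes a protein of the small subunit. Its level was 134, 149 and 185 CPM (lowest, median and highest of 6) with 100 nm PS, 125, 159 and 180 CPM with 1 µm PS, and 154, 343 and 920 CPM in ISO. Only ISO replicate 3, at 154 CPM, was within the range of the PS libraries. The log2 fold change was -1.50 (SE 0.30, adjusted p = 0.0112, edgeR) with 100 nm PS and -1.43 (SE 0.29, adjusted p = 0.0133, edgeR) with 1 µm PS. Rps15a was called for both sizes in each of the 18 fits that left out 1 library. Without ISO replicate 2 it was at -0.99 in both comparisons (adjusted p = 0.0097 and 0.00806, edgeR), and in batch 1 without that library at -0.68 in both. It differed from most ribosomal protein genes in ISO replicate 1, where it was at 357 CPM, above every PS library.

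Other genes of the small subunit had larger fold changes that leaned more on ISO replicate 2. Rps29, a short zinc-binding protein, was at 51.4, 72.9 and 105 CPM with 100 nm PS, 70.002, 80.7 and 127 CPM with 1 µm PS, and 24.1, 239 and 1466 CPM in ISO. ISO replicate 1, at 24.1 CPM, lay below every PS library, replicate 3, at 59.3 CPM, below all but 1, and the other 4 ISO libraries above them all. The log2 fold change was -2.38 (SE 0.64, adjusted p = 0.0305, edgeR) with 100 nm PS, the largest of all 80 genes in size, and -2.17 (SE 0.64, adjusted p = 0.0456, edgeR) with 1 µm PS. Without ISO replicate 2 it was -0.38 and -0.39, past no threshold.

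Rps12, also a small-subunit protein, was at 48.3, 73.4 and 102 CPM with 100 nm PS, 61.2, 68.7 and 112 CPM with 1 µm PS, and 50.2, 229 and 1149 CPM in ISO. ISO replicates 1 and 3 were within the range of the PS libraries and the other 4 above it. Its log2 fold changes were -2.25 (SE 0.56) and -2.13 (SE 0.55), with adjusted p = 0.0224 and 0.0293 (edgeR), and -0.70 and -0.73 without ISO replicate 2. Rps27, another zinc-binding protein, fell by 2.06 and 2.10 on the log2 scale, and its paralogue Rps27l was at -1.36 and -1.32. Per kilobase of coding sequence Rps27l was the lower of the pair in 16 of 18 libraries and the higher in ISO replicate 1 and 100 nm PS replicate 1. Rps14, a protein of the platform of the small subunit, fell by 1.58 and 1.55.

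Rps6, the ribosomal protein phosphorylated by the kinases downstream of mTORC1, was not called. It was at 320, 367 and 385 CPM with 100 nm PS, 284, 343 and 370 CPM with 1 µm PS, and 230, 452 and 891 CPM in ISO, with all PS libraries inside the ISO range. Its log2 fold changes were -0.47 (SE 0.26, adjusted p = 0.244, edgeR) and -0.56 (SE 0.25, adjusted p = 0.169, edgeR). Rpsa, which also serves as a precursor of a laminin receptor, was at -0.92 and -0.89, with adjusted p = 0.123 and 0.134 (edgeR). Rps4x, the X-linked form of its protein, was at -0.89 in both comparisons (adjusted p = 0.0531 and 0.0551, edgeR), and the transcribed pseudogene Rps4l, at a mean of 36.8 CPM, was at -0.06 and -0.09 (adjusted p = 0.879 and 0.829, edgeR).

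In the large subunit, Rpl39, a very short protein that lines the exit tunnel, had the smallest p after Rps15a with 1 µm PS. It was at 70.4, 88.1 and 122 CPM with 100 nm PS, 61.9, 88.8 and 99.9 CPM with 1 µm PS, and 85.9, 162 and 978 CPM in ISO. Only ISO replicate 3, at 85.9 CPM, was within the range of the PS libraries, and the other 5 ISO libraries were above it. The log2 fold change was -1.84 (SE 0.44, adjusted p = 0.0205, edgeR) with 100 nm PS and -1.86 (SE 0.43, adjusted p = 0.021, edgeR) with 1 µm PS. Without ISO replicate 2 it was -0.78 (adjusted p = 0.0746, edgeR) and -0.91 (adjusted p = 0.0346, edgeR).

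Rpl30, Rpl26 and Rpl17, proteins of the large subunit, fell by 1.88, 1.46 and 1.47 on the log2 scale with 100 nm PS and by 1.72, 1.46 and 1.28 with 1 µm PS. Of these, Rpl17 was still called with 100 nm PS without ISO replicate 2 (-0.80, adjusted p = 0.0418, edgeR) and Rpl26 with 1 µm PS (-0.83, adjusted p = 0.0452, edgeR). For both PS groups together, Rps15a, Rpl39, Rpl26, Rpl17 and Rps14 were called in each of the 18 fits that left out 1 library, and no other ribosomal protein gene was. Rpl37 fell by 1.74 and 1.68, and Rpl22, an RNA-binding protein, was at -1.198 and -1.24 (adjusted p = 0.0359 and 0.0335, edgeR). Rpl41, the smallest protein of the ribosome, with a coding sequence of 75 bases, fell by 2.10 and 1.98.

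Rpl3, which reaches towards the peptidyl transferase centre, and its muscle paralogue Rpl3l stood at the other end. Rpl3 was at 215, 250 and 282 CPM with 100 nm PS, 183, 235 and 250 CPM with 1 µm PS, and 156, 289 and 411 CPM in ISO. Rpl3l was at 158, 212 and 240 CPM with 100 nm PS, 170, 235 and 331 CPM with 1 µm PS, and 119, 295 and 391 CPM in ISO. For both genes all PS libraries were inside the ISO range. Per kilobase of coding sequence the means were 198 CPM for Rpl3l and 211 CPM for Rpl3, a difference smaller than the spread between libraries. The log2 fold changes of Rpl3 were -0.15 (95% interval -0.61 to 0.31) and -0.31 (-0.76 to 0.14), and those of Rpl3l -0.32 (-0.80 to 0.16) and -0.18 (-0.64 to 0.29).

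Rpl10, which completes the large subunit late in its assembly, was at -0.35 and -0.42 (adjusted p = 0.408 and 0.314, edgeR), and its testis paralogue Rpl10l was not detected. In the smallest library, of 14032257 counts, a count of 0 allows a level of up to 0.214 CPM (3 counts), counting error only. Rpl39l, the testis paralogue of Rpl39, reached at most 0.699 CPM. In the P stalk, which recruits elongation factors, Rplp1 was at -1.52 and -1.53 and Rplp2 at -1.26 and -1.23, and neither passed in a comparison of one size (adjusted p between 0.0544 and 0.0749, edgeR). Both were called when the sizes were averaged, at -1.53 and -1.25. Rplp0, which anchors the stalk to the ribosome, was at -0.50 and -0.41 (adjusted p = 0.261 and 0.36, edgeR).

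**Figure D3:**
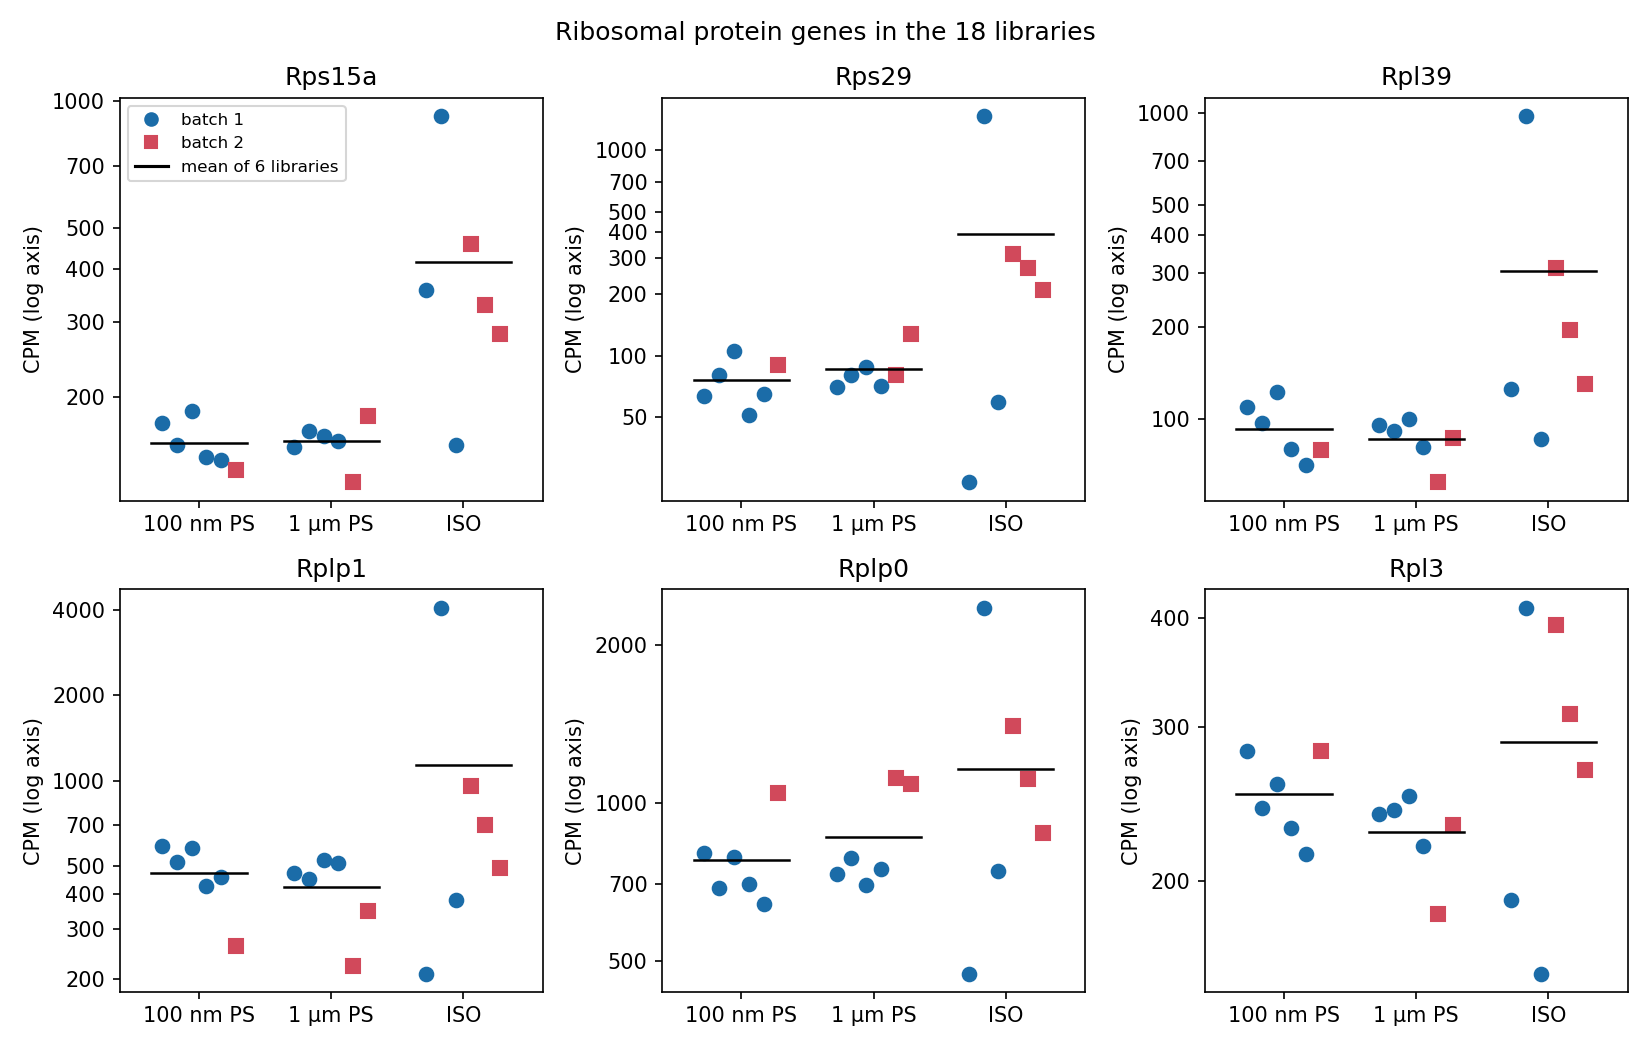
CPM (log axis) of 6 ribosomal protein genes in the 18 libraries, by group; circles are batch 1, squares batch 2 and bars group means. In Rps15a only ISO replicate 3, at 154 CPM, lies within the PS libraries; in Rps29, Rpl39 and Rplp1 ISO replicate 2 stands far above all others; in Rplp0 and Rpl3 the PS libraries lie inside the ISO range.

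The fold change was more negative for shorter proteins. Across the 78 tested genes with an annotated coding length, Spearman's correlation between length and log2 fold change was 0.81 with 100 nm PS and 0.84 with 1 µm PS, a description of genes that share their libraries. Over all genes tested with an annotated coding length it was 0.25 and 0.30. Among the 26 genes with the shortest coding sequences, 75 to 399 bases, 17 fell with 100 nm PS and 17 with 1 µm PS, with median log2 fold changes of -1.70 and -1.69. Of the 26 genes of 405 to 564 bases 6 fell in each comparison, with medians of -1.27 and -1.23. Of the 26 longest, 576 to 1257 bases, 3 fell in each, with medians of -0.79 and -0.77.

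Other genes with a mean of at least 100 CPM showed a similar order at a smaller size. Of 104 other genes as short as the shortest ribosomal protein genes, 25% were called lower with 100 nm PS, with a median of -0.78. Of 109 in the middle range of lengths 13.8% were called lower, with a median of -0.40, and of 385 in the longest range 8.31%, with a median of -0.20. At each length the ribosomal protein genes had the more negative median in this fit over all 18 libraries. The comparison was not repeated without ISO replicate 2, and the cut of 100 CPM used a mean that includes it. The other genes were not cleared of ribosomal proteins under other names. GC content did not order the ribosomal protein genes (Spearman's correlation with log2 fold change 0.05 and 0.08), while over all genes the correlation was 0.46 and 0.52. The libraries themselves differed in this respect: the correlation of a library's deviation from its batch mean with GC content over all genes was 0.13 to 0.37 with 100 nm PS, 0.18 to 0.32 with 1 µm PS and -0.62 to 0.02 in ISO. With transcript length over all genes it was -0.11 to 0.19 with 100 nm PS and -0.08 to 0.30 with 1 µm PS. It was -0.34, -0.37 and -0.36 in ISO replicates 2, 4 and 5, and 0.39, 0.22 and 0.05 in ISO replicates 1, 3 and 6. Fits corrected for GC content, and for GC content and length, are given at the end. Whether these differences between libraries caused the result was not tested.

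**Figure D4:**
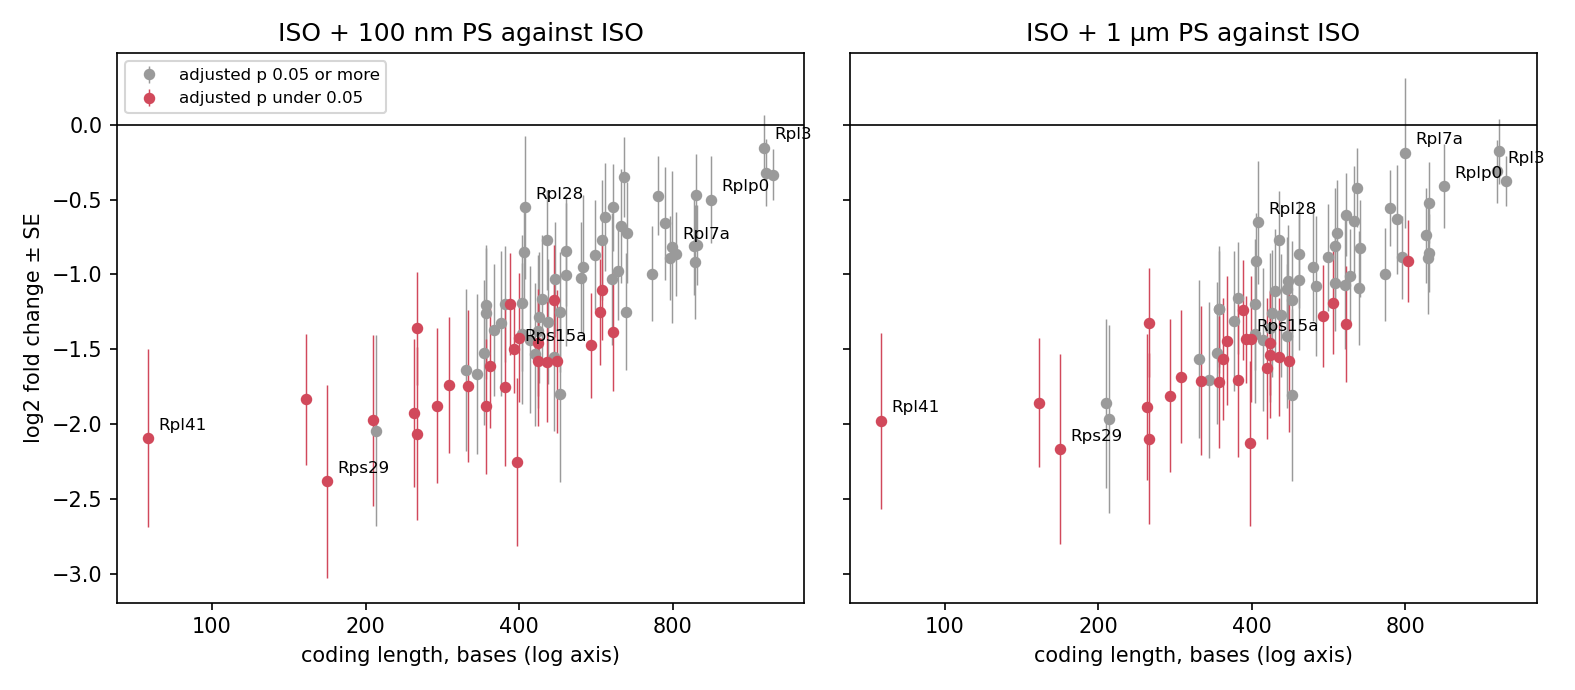
Log2 fold change with its standard error of 78 ribosomal protein genes against coding length in bases (log axis), left for 100 nm PS and right for 1 µm PS against ISO; red points passed an adjusted p under 0.05. Rps29, with 168 coding bases, lies at -2.38 and -2.17, and Rpl3, with 1209, at -0.15 and -0.31.

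Within single libraries the same order appeared as a contrast between the 26 shortest and the 26 longest genes. In batch 2 the mean log2 CPM of the shortest minus that of the longest was -1.48 with 100 nm PS and -1.62 and -1.34 with 1 µm PS, against -0.66, -0.77 and -0.76 in ISO. In batch 1 it was -1.47 to -1.08 with 100 nm PS and -1.42 to -1.21 with 1 µm PS, against -1.50, 0.04 and -1.40 in ISO. The 4 ISO libraries with high levels of ribosomal protein genes were thus also those in which the short genes were high relative to the long ones. The correlation of fold change with coding length was 0.78 in batch 1 and 0.78 in batch 2 with 100 nm PS, 0.55 without ISO replicate 2, and -0.26 in batch 1 without it.

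The genes moved together across libraries. After centring on the mean of its batch, 67 of 80 genes had a Pearson correlation above 0.9 with the mean of the other ribosomal protein genes over the 18 libraries, and the median was 0.97. The median was 0.92 without ISO replicate 2. The lowest values were those of Rpl28 (-0.25), Rpl7a (0.69), Rpl3l (0.73) and Rps4l (0.73).

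For some of these genes the 2 count tables disagreed on the level itself. Rpl28, a protein of the large subunit, had a mean of 0.209 CPM in batch 1 and 274 CPM in batch 2. Of the counts of Rpl28 and its -ps entries in batch 1, 99.2% stood under the -ps entries, against 16.4% in batch 2. Rpl7a had means of 57.1 and 497 CPM in the 2 batches, Rpl5 360 and 12.5 CPM, Rpl12 260 and 11.3 CPM, and Rpl6l 16.1 and 0 CPM. Rpl6l was called lower for both sizes, at -2.23 and -2.05, on counts from batch 1 alone, and was at -0.47 with 100 nm PS without ISO replicate 2 (adjusted p = 0.224, edgeR). Rpl17 had 67.97% of such counts under -ps entries in batch 1 and 0.214% in batch 2, and Rpl10 2.75% and 70.7%. For Rpl5 the -ps entries held 0.0207% and 0.0887% of such counts, for Rpl12 0.0103% and 0%, in batch 1 and batch 2, and Rpl6l had no -ps entry. The levels of these genes are uncertain, and what set the tables apart was not tested. Over all 83 genes the -ps entries took 4.08% of such counts in batch 1 and 3.86% in batch 2. Adding them to their parent genes gave 29 genes lower with 100 nm PS and 29 with 1 µm PS.

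No difference between the particle sizes was detected. Comparing 1 µm PS with 100 nm PS, none of the 80 genes was called (0% of all genes, edgeR), none had an unadjusted p under 0.05, while 49 of 14623 genes (0.335%) did. No ribosomal protein gene had ranges of CPM that did not overlap, against 0.0274% of all genes lower and 0.00684% higher. DESeq2 and limma voom also called no ribosomal protein gene. The edgeR fit takes 1 spread for all groups, ISO included, and its intervals carry that spread. The SD of the mean log2 CPM was 1.16 in ISO, against 0.20 with 100 nm PS and 0.25 with 1 µm PS. In limma voom with quality weights, 1 ribosomal protein gene and 630 of 14623 genes had an unadjusted p under 0.05. The log2 fold changes ran from -0.16 to 0.63 with a median of 0.02. For Rps15a the difference was 0.06, with a 95% interval of -0.55 to 0.68, and for Rps29 0.21, with an interval of -1.12 to 1.54. A 2-fold difference is inside the interval for Rps29 and outside it for Rps15a.

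Genes near the ribosome were read from lists chosen with earlier results of these data known. Of 8 ribosomal proteins under other names, 3 fell with 100 nm PS and 3 with 1 µm PS, with medians of -0.95 and -0.98, where 5.69% and 4.5% of all genes were called lower. Among them Rpl22l1, the paralogue of Rpl22, was at -1.72 (SE 0.38, adjusted p = 0.0158, edgeR) and -1.66 (SE 0.37, adjusted p = 0.0183, edgeR), and Rps27rt at -2.17 and -1.74. The list of other TOP mRNAs, 21 genes, shares Rack1 with the list before it and Npm1 with that of ribosome assembly below. Of the 21, 2 fell in each comparison, with medians of -0.38 and -0.35. These were Eif3e, a subunit of an initiation factor, at -0.68 in both (SE 0.16 and 0.15), and Tpt1, the translationally controlled tumour protein, at -1.23 and -1.21. Without ISO replicate 2, 2 and 1 of the ribosomal proteins under other names and 3 and 3 of the other TOP mRNAs were called lower, with medians of -0.20 and -0.31, and of -0.08 in both comparisons, beside 9.04% and 8.56% of all genes. Rpl22l1 was then at -1.12 and -1.11 (adjusted p = 0.0462 and 0.039, edgeR), Eif3e at -0.71 and -0.72 (adjusted p = 0.0101 and 0.00847, edgeR), and Tpt1 at -0.61 and -0.64, no longer called (adjusted p = 0.111 and 0.08, edgeR).

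Factors that build, control and inspect ribosomes had medians nearer 0. Of 48 genes for ribosome assembly and rRNA synthesis, 3 fell with 100 nm PS and 1 with 1 µm PS, none rose, and the medians were -0.27 and -0.12. The counts of these lists are to be read against the same 5.69% and 4.5% of all genes called lower and 3.88% and 2.89% called higher. Wdr12, needed to process the RNA of the large subunit, was at -0.72 (adjusted p = 0.0192, edgeR) and -0.48 (adjusted p = 0.0776, edgeR), and Gnl3, nucleostemin, at -0.65 and -0.50. Of 17 genes of mTORC1 and TOP control, only Larp4, an RNA-binding protein that stabilizes mRNAs, fell, at -1.03 (SE 0.20) and -0.90 (SE 0.19), and the medians were -0.02 and 0.13. The cap-binding protein Eif4e was at -0.58 and -0.49 (adjusted p = 0.067 and 0.111, edgeR). Among 12 genes for stalled ribosomes 1 rose and 1 fell in each comparison, and the medians were -0.03 and 0.07. The one that rose was Zfp598, a ubiquitin ligase that marks collided ribosomes, at 0.47 (SE 0.14, adjusted p = 0.0428, edgeR) and 0.54 (SE 0.14, adjusted p = 0.0282, edgeR). Map3k20, a kinase that senses stalled ribosomes, was at -0.66 (adjusted p = 0.0242, edgeR) with 100 nm PS and at -0.48 (adjusted p = 0.0748, edgeR) with 1 µm PS. The gene that fell with 1 µm PS was Nemf, which tags the chains of stalled ribosomes, at -0.49 (SE 0.12, adjusted p = 0.027, edgeR), and it was named after its value was seen. In the fit without ISO replicate 2, 5 and 3 assembly genes and 4 and 4 genes of mTORC1 and TOP control were called lower, against 9.04% and 8.56% of all genes, Eif4e among them at -0.75 and -0.65 (adjusted p = 0.0083 and 0.0149, edgeR). Larp4 was then at -1.13 and -0.99, and Zfp598 at 0.44 and 0.51, and both were called for each size.

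Markers of other cell types moved with the comparison of PS with ISO, and their part in the result was not tested. With 100 nm PS 5 of 10 fibroblast markers, 3 of 10 endothelial markers and 4 of 10 smooth muscle and pericyte markers rose and none fell, with medians of 0.63, 0.67 and 0.67 (3.88% of all genes were called higher). With 1 µm PS 1, 1 and 4 of them rose, with medians of 0.32, 0.50 and 0.72 (2.89% of all genes). Leaving out ISO replicate 2 gave 4, 3 and 4 with 100 nm PS and 2, 2 and 5 with 1 µm PS, where 5.01% and 4.83% of all genes were called higher. Of 10 macrophage markers none was called for either size (edgeR).

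Other measures moved with the level of these genes in ISO replicate 2, and their part was likewise not tested. Its fibroblast markers summed to 2386 CPM, against 2784 to 6038 CPM in the other 17 libraries. Its endothelial markers summed to 1076 CPM, against 1669 to 3409 CPM, with 8 of 10 at their lowest there. The smooth muscle and pericyte markers summed to 733 CPM, against 1454 to 2319 CPM, with Tagln and Cnn1 at 0. Macrophage markers summed to 797 CPM, against 210 to 457 CPM, with 5 of 10 at their highest. Lymphocyte markers summed to 29.1 CPM, against 3.33 to 7.66 CPM, with Cd3e, Cd4, Cd79a, Ms4a1 and Nkg7 at 0. Adipocyte markers summed to 2525 CPM, against 147 to 1259 CPM. Adipoq, Plin1 and 5 more of 8 were at 0, so the sum in ISO replicate 2 was Fabp4 alone. All 12 cardiomyocyte markers were detected in it, and they summed to 80461 CPM. The other libraries of batch 1 had 41815 to 61197 CPM of these, and those of batch 2 had 91058 to 129701 CPM. Erythroid markers summed to 3217 CPM in ISO replicate 2, against 245 to 1261 CPM in the other libraries of batch 1. In batch 2 several of the measures, but not all, kept the PS and ISO libraries apart as the ribosomal protein genes did. Of all genes tested, 16.7% were lower in every PS library of batch 2 than in every ISO library, and 16.7% were higher. The erythroid markers, 7 genes, summed to 709 to 1549 CPM in PS libraries and 1906 to 4022 CPM in ISO libraries. The adipocyte markers summed to 147 to 403 CPM in PS and 593 to 1259 CPM in ISO libraries. The atrial markers summed to 412 to 595 and 666 to 923 CPM, and the neutrophil markers to 0.269 to 0.724 and 2.20 to 8.31 CPM. Of these, 2 of 8 adipocyte, 4 of 6 atrial and 2 of 8 neutrophil markers passed the filter on low counts. Mitochondrial counts took 12.9 to 16.7% in PS and 19.0 to 21.0% in ISO libraries. In batch 1 the ranges of all these measures overlapped between PS and ISO libraries. The atrial markers there summed to 105, 314 and 120 CPM in ISO replicates 1, 2 and 3, and to 241 to 3591 CPM in PS libraries. Over both batches ISO replicate 1 had the highest share of mitochondrial counts, 44.4%, against 12.9 to 31.9% in the other 17.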

How the data were processed

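Poly(A) libraries of 18 heart samples were deposited as 2 gene tables, 1 per sequencing provider. The batch 1 table holds whole read counts per gene as deposited by the authors. The batch 2 table holds estimated counts per gene as deposited by the authors, 19.6% of its nonzero values not whole (over 1e-06 from a whole number), and these were rounded. The build was GRCm39 (mm39), and the tools were featureCounts 1.5.0-p3, StringTie 1.3.3b, HISAT2 2.0.5, DESeq2 and fastp, per the submitters' processing notes, which do not say which made which table, so a difference in counting cannot be told apart from the batch.

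The tables were joined by gene number or name into 35560 genes. Entries without a name held 0.16 to 0.388% of the batch 1 counts and were left out, and 0 columns of per-sample values were unused. Genes were filtered with filterByExpr (minimum count 10), scaled by TMM and tested with edgeR 4.0.16 in R 4.3.3 (robust quasi-likelihood, group and batch, 14 residual degrees of freedom), with Benjamini-Hochberg adjustment over 14623 genes. The test was checked on simulated counts with no batch difference and no outlying library, so the check does not cover those features of these data. DESeq2 1.42.0 and limma 3.58.1 were used as alternatives. Library totals, 14032257 to 22600570 counts, limit the precision of low genes, and intervals of 95% come from the fit.

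The ribosomal protein genes and the other lists were chosen with earlier results of these data known. Genes named are the stalk proteins, the S6 kinase target, paralogue pairs, members that an earlier account of these data named, the 5 with the smallest p in each comparison, the 3 highest and 3 lowest per kilobase, the 3 with the lowest correlation with the rest, and the 2 with the smallest p of each other list. No 2 of the 23 replicate pairs compared differed by as little as sampling noise.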

Additional observations from a re-analysis of the deposited data

Results flagged for a closer look

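Each of 28 groups, of 84 tested (the mean level, the share of counts and the CPM of single genes in 3 groups of 6 libraries), held 1 library that stood apart from the other 5, with a gap to the nearest of more than 0.625 of the group's range. Chance sets apart about 1 in 20 groups where values are normally distributed, which unlogged CPM need not be, and the genes share their libraries. By the mean log2 CPM, ISO replicate 2 was not set apart from the other ISO libraries under this rule.

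ISO replicate 2 was the library in 17 of them. It had 8.26% of its counts in ribosomal protein genes and was highest for Rplp1 (4078 CPM), Rpsa (3447 CPM), Rpl10 (868 CPM), Rpl22 (754 CPM), Rpl39 (978 CPM), Rps4x (1754 CPM), Rps27 (1177 CPM) and Rps27l (315 CPM). It was also highest for Rps12 (1149 CPM), Rps14 (3252 CPM), Rps29 (1466 CPM), Rpl30 (1489 CPM), Rpl37 (1008 CPM), Rpl26 (1629 CPM), Rpl10a (1135 CPM) and Rpl41 (3580 CPM).

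In the 1 µm PS group, replicate 5 was lowest for the mean log2 CPM (6.83), the share of counts (1.16%), Rpl10a (137 CPM) and Rpl41 (160 CPM), and replicate 6 was highest for Rpsa (797 CPM) and Rps29 (127 CPM). These are the only libraries of that group in batch 2, so library and batch cannot be fully told apart there. In the 100 nm PS group, replicate 6 was lowest for Rpl10 (137 CPM) and Rpl22 (77.2 CPM) and highest for Rpl17 (199 CPM), Rpl7a (404 CPM) and Rpl28 (181 CPM). It is the only library of that group in batch 2, so the library and the batch cannot be told apart.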

How the results depend on the processing

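For 100 nm PS and 1 µm PS against ISO, 27 and 27 genes were called. The counts were 9 and 6 with no filter (3% and 2.02% of all genes called), 50 and 50 with DESeq2 (17.9% and 16.8%), 56 and 55 at an adjusted p under 0.1 (18.1% and 15.9%), 3 and 0 in batch 1, 0 and 0 in batch 2, 0 and 0 with no batch term, 0 and 0 with a GC or a GC and length correction, and 1 and 7 without ISO replicates 1 and 2 (4.03% and 6.47%). For both groups against ISO 56 became 25 with no batch term, 18 in batch 1, 26 in batch 2 and 16 without ISO replicates 1 and 2. In batch 1 without ISO replicate 2, an alternative chosen after seeing the data, 27, 25 and 36 genes were called, nearly all higher, and the medians were 0.50, 0.51 and 0.49. Leaving out 1 library gave 1 to 69, 1 to 71 and 5 to 73 genes and medians of -1.47 to -0.32, -1.44 to -0.39 and -1.45 to -0.36, and for 1 µm against 100 nm PS 0 genes and medians of -0.08 to 0.06. The GC correction moved the median of all genes to -0.15, -0.10 and -0.13, and that of the ribosomal protein genes to -1.58, -1.51 and -1.55. The GC and length correction gave -0.17, -0.14 and -0.15 for all genes, and -0.91, -0.85 and -0.87 for the ribosomal protein genes. For both groups against ISO these 2 corrections left 70 and 44 ribosomal protein genes lower (12% and 9.27% of all genes called). The median of the ribosomal protein genes was -0.74, -0.72 and -0.73 with limma voom, -0.74, -0.81 and -0.78 with a replicate block and -0.69, -0.74 and -0.72 without ISO replicates 1 and 2. The cause of these changes was not tested.

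With a replicate block 0, 0 and 1 genes were called. What remained of same-numbered libraries after fitting group and batch had correlations of -0.44 to 0.23. Other pairs were not compared, so these values cannot show whether same-numbered libraries share an origin. The labels do not say that the numbers mark a shared litter, cage or day.

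Of uncalled genes, some changed sign. With limma voom Rplp0 was at 0.00112 and 0.020, Rpl10 at 0.29 and 0.20, Rps4l at 0.000308 (100 nm PS) and Rpl7a at 0.40 (1 µm PS). In batch 1 Rps4l was at 0.0065 (100 nm PS) and Rpl7a at 0.067 (1 µm PS), and in batch 2 Rpl10 at 0.32 (100 nm PS). With the replicate block Rpl3 was at 0.026 (100 nm PS), Rps4l at 0.10 and 0.052, and Rpl7a at 0.12 (1 µm PS). With the GC and length correction Rpl7a was at 0.19 (1 µm PS). Without ISO replicates 1 and 2 Rpl10 was at 0.15 and 0.038 and Rpl7a at 0.061 (1 µm PS). Leaving out 1 library gave, with 100 nm PS, Rpl10 -0.51 to 0.12, Rpl3 -0.31 to 0.081, Rplp0 -0.67 to 0.084 and Rps4l -0.25 to 0.17. With 1 µm PS it gave Rpl10 -0.57 to 0.012, Rpl3l -0.33 to 0.060, Rpl7a -0.50 to 0.60, Rplp0 -0.57 to 0.11 and Rps4l -0.25 to 0.12. Depth limits Rpl39l, Rpl10l and Rpl32l, which had too few counts to test.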

Other observations

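The motif CCGGAAG, a form of the site bound by ETS factors, stood in 15.1% of the promoter windows of ribosomal protein genes and in 2.91% of the windows of other genes on the transcript strand, and in 5.48% and 2.85% on the opposite strand. A C was the first transcribed base in 28.8% and 16.3% of the windows. Per kilobase of coding sequence, the highest mean levels of 78 tested genes were those of Rpl41, Rplp1 and Rps14, at 5883, 1981 and 1383 CPM over 18 libraries and 3421, 1396 and 1042 CPM without ISO replicate 2. The lowest over 18 libraries were those of Rpl3l, Rpl3 and Rpl28, at 198, 211 and 223 CPM, and without ISO replicate 2, a setting chosen after seeing the data, those of Rpl36a, Rpl3l and Rpl3, at 186, 190 and 204 CPM. The place of Rpl28 comes from pooling 0.209 CPM in batch 1 with 274 CPM in batch 2.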
